A study of Saccharomyces cerevisiae with 4 samples.

Results

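The 50 genes described here encode the machinery that takes budding yeast into, through and out of mitosis, and they were followed in cells grown with and without Congo red. They were chosen by name, as all spots whose symbol in the array's annotation was a mitotic cyclin, its kinase and regulators, a part of the anaphase-promoting complex, a checkpoint or mitotic exit protein, a transcription factor of this phase or a spindle protein. All 50 were found, each printed as 2 neighbouring spots, which makes 100 of the 12800 spots and 50 of the 5539 genes with a symbol. All 50 also had values on enough arrays to be tested, out of 5489 genes tested. Of the 50, 6 had values on 3 arrays only, while 5124 of all genes tested had values on all 4.

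Congo red is a dye that binds chitin and other cell wall polysaccharides and disturbs wall assembly. The cells were Saccharomyces cerevisiae BY4741, which is haploid, of mating type a, and deleted for HIS3, LEU2, MET17 and URA3 in treated and untreated cells alike. From 1 culture in rich medium at 24 °C came both samples, one part grown for 2 h with 30 µg/ml of the dye and the other grown on for the same time without it. Each of 4 2-colour arrays held RNA from both, and channel 2 carried the treated RNA on arrays 1 and 3, channel 1 on arrays 2 and 4. Whether the arrays came from separate cultures is not stated in the labels, and the p-values therefore reflect only the variation among these arrays, which may be technical. Array values are ratios and hold no level of any transcript, so the strain could not be checked against its deleted genes.

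Entry into mitosis in budding yeast depends on the kinase Cdc28 bound to the cyclins Clb1 to Clb4. The kinase Swe1 holds Cdc28 back and the phosphatase Mih1 releases it, and Hsl1 and Hsl7 at the bud neck bring Swe1 to its destruction. The anaphase-promoting complex then marks securin and the cyclins for destruction, and the mitotic exit network frees the phosphatase Cdc14, which ends mitosis. In this yeast, defects in bud or wall growth are known to delay mitosis, through Swe1 in the morphogenesis checkpoint, on which the cell wall kinase Slt2 also acts, and with low CLB2 transcript when glucan synthesis fails. A culture that is not synchronised mixes cells of all phases, so fewer cells in mitosis and less of a transcript per cell cannot be told apart here.

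All values are log2 ratios with the array median set to 0, and a value of 1 stands for a doubled ratio relative to that median. They are read as Congo red over untreated, a direction that is likely but not settled by the labels. Its basis is a list of 8 cell wall stress genes of the Slt2-Rlm1 route, of which the 7 tested lay above 0 on all 4 arrays, with list medians of 1.96, 1.52, 2.11 and 2.19 on arrays 1 to 4. The median of their means was 1.95. With the sign of arrays 2 and 4 turned, as if ratios ran by channel, it was 0.04, with 4 of the 7 means above 0 and 3 below. These genes were known from earlier results to lie above 0, so they are no independent evidence. Between 11609 and 12586 spots had a value on an array. Over the 5124 genes with 4 values, Spearman's rho was 0.62 between arrays 1 and 3 and 0.23 between arrays 2 and 4. Between arrays of opposite channel assignment it ran from -0.12 to -0.04. The ratios therefore ordered genes in part by channel assignment, and values by assignment are given beside the results.

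No mitotic gene passed the test. With limma and Benjamini-Hochberg adjustment over all genes, 0 of 50 had an adjusted p under 0.05 in either direction, where 0.0911% of all genes tested did, all of them higher. The smallest adjusted p among the 50 was 0.31 (limma, HSL1). At an unadjusted p under 0.05, 2 of 50 (4%) were higher, against 5.37% of all genes tested, and 1 of 50 (2%) was lower, against 2.37%. In either direction that made 3 of 50 (6%), against 7.74%. These shares lie near the background. Without array 1, 2 or 3 in turn 1 gene was higher at this p, and without array 4 there were 3, while without array 1 or array 3 the count of lower genes was 0. Over all genes the share at this p in either direction moved too, to 4.20%, 8.74%, 4.30% and 8.04% without arrays 1 to 4 in turn. With 4 arrays, the precision of every gene is limited. Of the 7 cell wall stress genes tested, 2 passed the adjusted threshold, although all 7 lay above 0 on all 4 arrays. CWP1 missed it at a mean of 2.45 (limma adjusted p = 0.062) and PIR3 at 1.73 (limma adjusted p = 0.49). Missing the threshold therefore does not show that a gene was unchanged.

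The median of the 50 genes lay close to that of all genes. Their means had a median of -0.03, with quartiles of -0.25 and 0.28, beside a median of -0.01 and quartiles of -0.20 and 0.22 over all genes tested. The medians of the 50 on arrays 1 to 4 were -0.04, -0.10, 0.11 and -0.14. In the mean 24 of 50 (48%) lay above 0 and 26 below, where 48.0% of all genes tested lay above. Of the 44 genes with 4 values, 3 (6.82%) were above 0 on all 4 arrays against 9.54% of all such genes, and 4 (9.09%) were below 0 on all 4 against 8.65%. When 1 array was left out in turn, so that 3 arrays had to share a sign, these counts ran from 3 to 7 above and from 6 to 8 below. The mean lay within 0.5 of 0 for 38 of 50 (76%), against 82.7% of all genes tested. For 31 of the 50 the 95% interval of the mean, not adjusted for the number of genes, lay between -1 and 1, so a doubling or halving fell outside it. For the other 19 a doubling, a halving or both lay inside the interval. The share of all genes with such intervals was not counted.

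**Figure D1:**
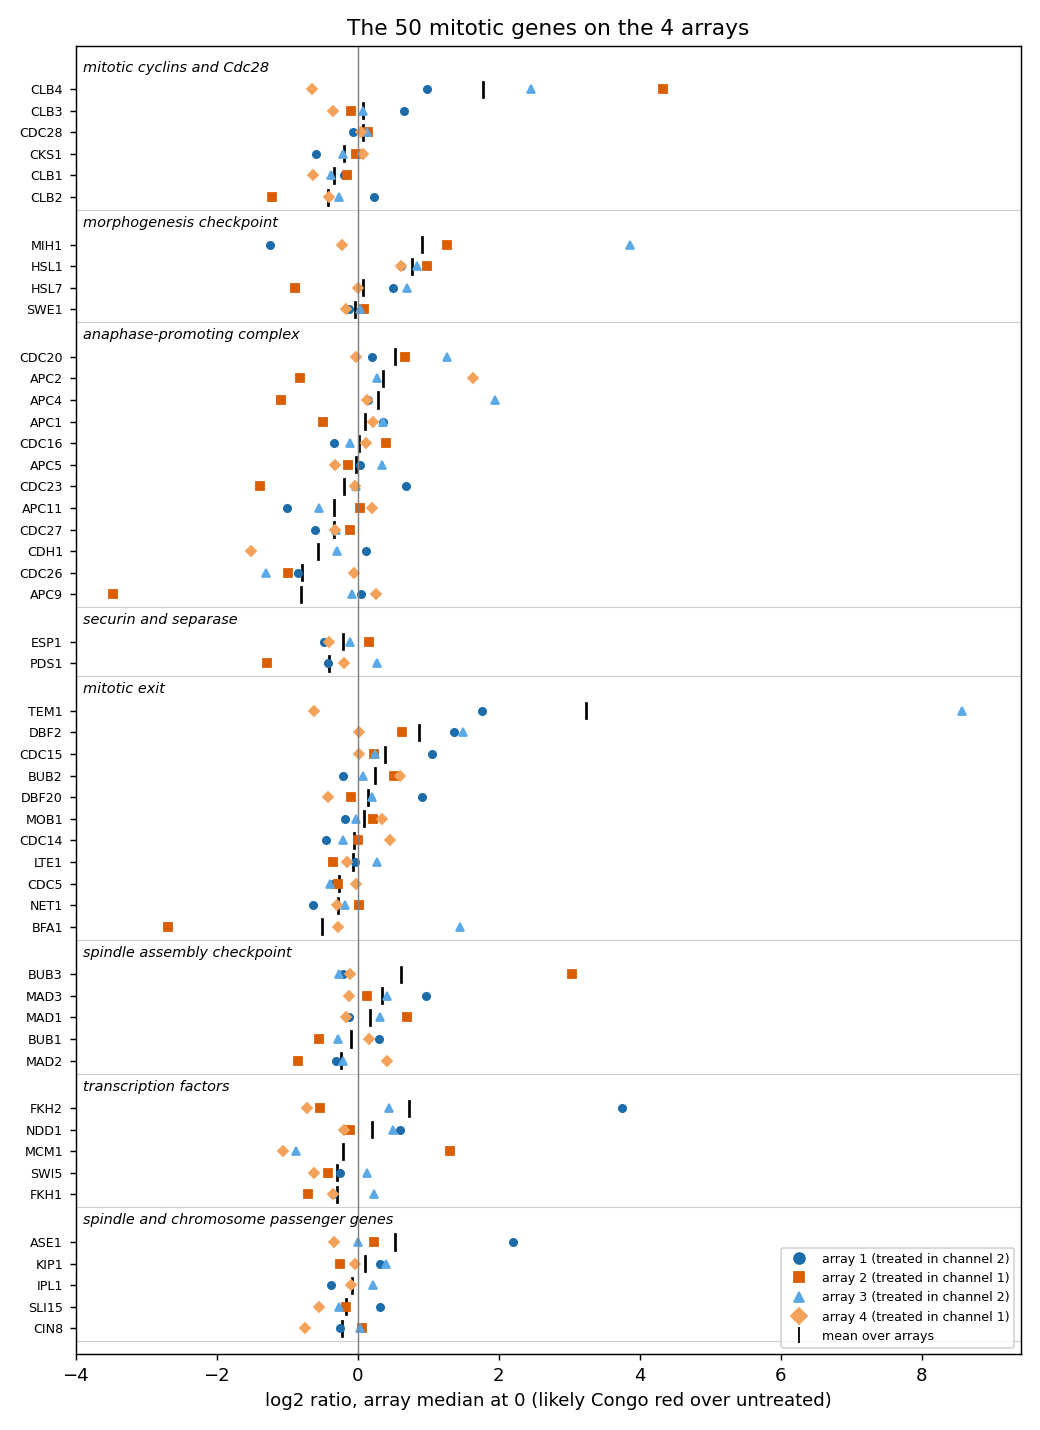
Log2 ratio of each of the 50 mitotic genes on each array (x axis, log2 units with the array median at 0), grouped by role and sorted by the mean within a role, which a black bar marks. Most points lie within 1 unit of 0, HSL1 is tightly placed between 0.61 and 0.99, and single arrays stand far out for TEM1, CLB4, MIH1, FKH2, APC9 and BUB3.

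Among the cyclins, CLB1 and CLB2 encode the pair that drives mitosis itself. CLB1 (YGR108W) stood at -0.20, -0.15, -0.38 and -0.63 on arrays 1 to 4. All 4 values were below 0, and the mean was -0.34 ± 0.15 (SE, n = 4, limma adjusted p = 0.66), with a 95% interval from -0.73 to 0.05. CLB2 (YPR119W) stood at 0.23, -1.21, -0.27 and -0.40. Array 1 was above 0 and the other arrays below, and the mean was -0.41 ± 0.26 (SE, n = 4, limma adjusted p = 0.73), with a 95% interval from -1.09 to 0.27. The low value on array 2 joins a spot at -2.24 and a spot at -0.19, and without that array the CLB2 mean was -0.15. For both genes the interval includes 0, and for CLB2 it also includes a halving. As a related pair, their spots may share signal, which was not tested.

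CLB3 and CLB4 encode cyclins that act earlier, on the spindle. CLB3 (YDL155W) stood at 0.66, -0.10, 0.08 and -0.35, a spread around 0 with a mean of 0.07 ± 0.21 (SE, n = 4, limma adjusted p = 0.93), and at -0.12 without array 1. CLB4 (YLR210W) stood at 0.99, 4.33, 2.46 and -0.65. Arrays 1 to 3 were above 0 and array 4 below, and the mean of 1.78 ± 0.83 (SE, n = 4, limma adjusted p = 0.68) was the highest of the cyclin group. Its value on array 2 rests on 1 spot, and its spots on array 3 lay apart at 3.16 and 1.75. The 95% interval ran from -0.36 to 3.93, so the size of the CLB4 ratio was not determined, and without array 2 the mean was 0.93. CDC28, the kinase they all bind, was steadier than any cyclin at -0.06, 0.15, 0.13 and 0.05, with a mean of 0.07 ± 0.13 (SE, n = 4) and a 95% interval from -0.27 to 0.41. CKS1, a small protein of the same kinase complex, had a mean of -0.19 ± 0.17.

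**Figure D2:**
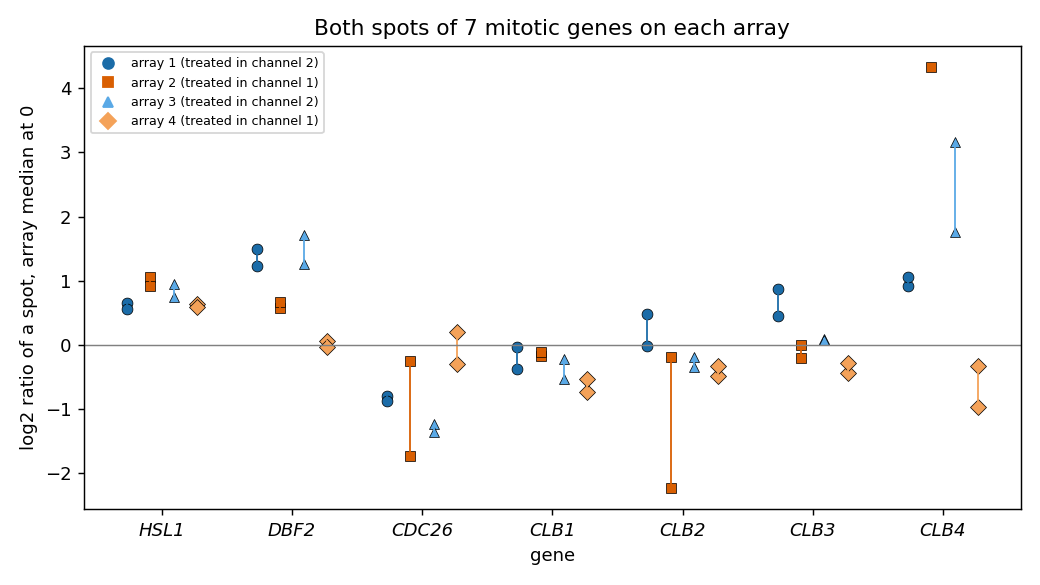
Log2 ratio of each spot (y axis, array median at 0) for HSL1, DBF2, CDC26 and the 4 cyclin genes, with the 2 spots of a gene on 1 array joined by a line. The spots of HSL1 agree closely on all arrays, while CLB2 on array 2, CDC26 on array 2 and CLB4 on array 3 each have spots more than 1 unit apart, and CLB4 on array 2 has a single spot.

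HSL1 (YKL101W) had the smallest p of the 50 genes. It encodes the septin-bound kinase that helps to remove Swe1, and it stood at 0.61, 0.99, 0.85 and 0.61 on arrays 1 to 4. All 4 values were above 0.6, and all 8 spots lay between 0.56 and 1.06. The mean was 0.76 ± 0.14 (SE, n = 4), which is 1.70-fold with a 95% interval from 1.31 to 2.20 (limma unadjusted p = 0.0033, adjusted p = 0.31). By channel assignment the mean was 0.73 on arrays 1 and 3 and 0.80 on arrays 2 and 4. HSL1 ranked 58 by p among the 5489 genes and missed the threshold. The mean ran from 0.69 to 0.82 with 1 array left out in turn (limma adjusted p from 0.46 to 0.95). No gene on the array passed in any of these fits. Without array 3, CLB1 and DBF2 had the same adjusted p of 0.95 (limma), so that value is not particular to HSL1. If the deposited ratios ran by channel and not by treatment, the HSL1 mean would be -0.037. The median of the 7 cell wall stress genes would then be 0.04.

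The other morphogenesis checkpoint genes did not stand with HSL1. SWE1 (YJL187C), the inhibitory kinase, stood at -0.13, 0.09, 0.03 and -0.17. These values straddle 0 closely, and its mean of -0.04 ± 0.13 (SE, n = 4, limma adjusted p = 0.94) had a 95% interval from -0.39 to 0.30, which is 0.763-fold to 1.23-fold. HSL7, the adaptor that joins Hsl1 to Swe1, stood at 0.51, -0.89, 0.70 and 0.01, with a mean of 0.08 ± 0.30. MIH1 (YMR036C), the phosphatase that opposes Swe1, stood at -1.24, 1.27, 3.86 and -0.22. The signs of MIH1 were divided between arrays of each channel assignment, and its mean of 0.92 ± 0.87 (SE, n = 4, limma adjusted p = 0.78) turned to -0.062 without array 3, where a single spot gave the value.

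The anaphase-promoting complex and its activators had 5 of 12 means above 0 and 7 below, with a median of -0.10. None of the 12 passed the test, and CDC26 alone was under an unadjusted p of 0.05. CDC26 (YFR036W), a small subunit known to be needed by this yeast at high temperature, stood at -0.84, -0.99, -1.30 and -0.05. All 4 values were below 0, with array 4 close to it, and the mean was -0.80 ± 0.24 (SE, n = 4), or 0.576-fold with a 95% interval from 0.375 to 0.886 (limma unadjusted p = 0.022, adjusted p = 0.58). By channel assignment it was at -1.07 on arrays 1 and 3 and at -0.52 on arrays 2 and 4. Its spots disagreed on array 2, at -0.25 and -1.73.

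APC9 (YLR102C), another small subunit, had the lowest mean of the complex, at -0.81 ± 0.70 (SE, n = 4, limma adjusted p = 0.77). Its values were 0.05, -3.47, -0.08 and 0.27, so array 2 alone set the mean, by 1 spot, and without that array it was 0.079. CDC20 (YGL116W), the activator of the complex at anaphase, stood at 0.20, 0.67, 1.26 and -0.03, with 3 arrays above 0 and array 4 just below, and a mean of 0.53 ± 0.26 (SE, n = 4, limma adjusted p = 0.69). This was the highest mean of the complex in the direction read here, but it was 0.28 without array 3, and with the sign of arrays 2 and 4 turned it was 0.20, below APC9 at 0.79 and APC4 at 0.76. CDH1, the activator used at exit, had 3 values, 0.12 on array 1, -0.30 on array 3 and -1.51 on array 4, with a mean of -0.56 ± 0.38. The CDH1 value on array 1 rests on 1 spot, and that on array 4 joins spots at -2.43 and -0.59. Among the other subunits, APC1, APC2, APC4, APC5, APC11, CDC16, CDC23 and CDC27, means lay between -0.33 for CDC27 and 0.37 for APC2. APC2 had 3 values and a 95% interval from -1.10 to 1.83. Its array 2 value joins spots at -2.48 and 0.85, and its values on arrays 3 and 4 rest on 1 spot each. CDC27, a subunit that binds the activators, was below 0 on all 4 arrays, at -0.60, -0.11, -0.31 and -0.32 (limma adjusted p = 0.66).

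Securin and separase, the inhibitor and the protease that opens cohesin, both had means below 0 and neither passed. PDS1 (YDR113C), which encodes securin, stood at -0.42, -1.28, 0.27 and -0.20, with a mean of -0.41 ± 0.28 (SE, n = 4, limma adjusted p = 0.74) that was -0.11 without array 2 and -0.63 without array 3. ESP1 (YGR098C), which encodes separase, stood at -0.47, 0.15, -0.11 and -0.41, with a mean of -0.21 ± 0.17 (SE, n = 4, limma adjusted p = 0.75). In both genes 3 of 4 arrays were below 0, and the array that went the other way differed, being array 3 for PDS1 and array 2 for ESP1.

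The mitotic exit genes had 6 of 11 means above 0, a median of 0.09 and no gene past the test. DBF2 (YGR092W), the kinase that works with Mob1 near the end of the exit network, stood at 1.37, 0.62, 1.49 and 0.02. Array 4 was close to 0 and the others higher, and the mean was 0.87 ± 0.30 (SE, n = 4), or 1.83-fold with a 95% interval from 1.08 to 3.10 (limma unadjusted p = 0.032, adjusted p = 0.62). It was at 1.43 on arrays 1 and 3 and at 0.32 on arrays 2 and 4, a difference of 1.11 ± 0.30 with a limma adjusted p = 0.24. Its partner MOB1 stood at -0.18, 0.21, -0.02 and 0.35, and its close relative DBF20 at 0.91, -0.10, 0.20 and -0.41. DBF2 and DBF20 are similar in sequence, so their spots may share signal. The same limit may apply to CLB1 and CLB2, CLB3 and CLB4, FKH1 and FKH2, KIP1 and CIN8, and BUB1 and MAD3. Sequence identity of these pairs was not computed. CDC15, the kinase upstream of Dbf2, was above 0 on all 4 arrays, at 1.05, 0.24, 0.24 and 0.02, with a mean of 0.39 ± 0.22 (SE, n = 4, limma adjusted p = 0.71).

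TEM1 (YML064C), the GTPase at the head of the exit network, had the highest mean of all 50 genes and the widest spread. It had 1.77 on array 1, 8.57 on array 3, -0.62 on array 4 and no value on array 2. The value on array 3 joins a spot at 0.07 with a spot at the upper limit of the deposited values, 17.1 after centring. The mean was 3.24 ± 1.96 (SE, n = 3, limma adjusted p = 0.73), and without array 3 it was 0.58, so TEM1 was not measured to a useful precision. Its inhibitors Bub2 and Bfa1 act as a pair: BUB2 stood at -0.20, 0.52, 0.07 and 0.60. BFA1 (YJR053W) had -2.69 on array 2, 1.46 on array 3 and -0.27 on array 4, with a mean of -0.50 ± 0.87 (SE, n = 3, limma adjusted p = 0.88) that was 0.59 without array 2. The BFA1 value on array 2 rests on 1 spot, and that on array 3 joins spots at 2.92 and -0.006.

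CDC5, the polo kinase of mitosis, was below 0 on all 4 arrays, at -0.34, -0.27, -0.39 and -0.02, with a mean of -0.26 ± 0.14 (SE, n = 4, limma adjusted p = 0.70). CDC14, the phosphatase released at exit, stood at -0.45, 0.01, -0.21 and 0.45, on both sides of 0. NET1, which holds Cdc14 in the nucleolus, stood at -0.64, 0.02, -0.17 and -0.29; it overlaps the dubious reading frame APQ13, so its signal may not be its own alone. LTE1, which favours exit once the spindle enters the bud, had a mean of -0.07 ± 0.16.

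Spindle assembly checkpoint genes, whose products hold anaphase until chromosomes are attached, had 3 of 5 means above 0 and no gene past the test. BUB3 (YOR026W) stood at -0.20, 3.04, -0.26 and -0.11. Array 2 alone was high, through spots at 3.86 and 2.21, and the mean of 0.62 ± 0.64 (SE, n = 4, limma adjusted p = 0.79) was -0.19 without it. MAD2 (YJL030W) stood at -0.31, -0.84, -0.21 and 0.41, with a mean of -0.24 ± 0.24. Its spots on array 2 were at 0.73 and -2.42, so that value has no agreed sign, and the mean was -0.037 without array 2 and -0.46 without array 4. With the sign of arrays 2 and 4 turned it was -0.023. BUB1, MAD1 and MAD3 had means of -0.09, 0.18 and 0.35.

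The transcription factors of the mitotic gene cluster had 2 of 5 means above 0. FKH2 (YNL068C), the forkhead factor that works with Mcm1 and Ndd1 at the CLB2 promoter, stood at 3.75, -0.54, 0.44 and -0.72. The array 1 value rests on 1 spot, and the mean of 0.73 ± 0.82 (SE, n = 4, limma adjusted p = 0.80) was -0.27 without that array. FKH1 (YIL131C), its relative, stood at -0.35, -0.71, 0.23 and -0.35, with a mean of -0.30 ± 0.20 (SE, n = 4, limma adjusted p = 0.74). NDD1, the coactivator, stood at 0.60, -0.11, 0.50 and -0.19, above 0 on arrays 1 and 3 and below on arrays 2 and 4. MCM1 had 1.32, -0.87 and -1.06 on arrays 2, 3 and 4. SWI5, which activates genes at the end of mitosis and is itself a target of this cluster, had a mean of -0.29 ± 0.18 (SE, n = 4, limma adjusted p = 0.71).

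The spindle genes had 2 of 5 means above 0, and none passed the test. ASE1 (YOR058C), which bundles microtubules at the spindle midzone, stood at 2.21, 0.24, 0.01 and -0.34. Array 1 alone was high, on 1 spot, and the mean of 0.53 ± 0.46 (SE, n = 4, limma adjusted p = 0.77) was -0.031 without it. CIN8 (YEL061C), a motor that pushes the poles apart, stood at -0.25, 0.06, 0.03 and -0.75, with a mean of -0.23 ± 0.19 (SE, n = 4, limma adjusted p = 0.76). Array 4 was its lowest value, and the mean was -0.053 without that array and -0.047 with centring within runs of 400 spots. KIP1, the related motor, had a mean of 0.11, and IPL1 and SLI15, the Aurora kinase and its partner at centromeres, had means of -0.08 and -0.17. IPL1 had values on 3 arrays, and its spots on array 1 lay at 0.46 and -1.22.

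The large ratios among the mitotic genes came mostly from single spots or from spots that disagreed. Of 194 gene values on an array, 13 lay more than 1.5 units from 0. Of these 13, 7 rested on 1 spot, 5 on spots more than 1 unit apart, and 1 on spots within 1 unit of each other, which was APC4 on array 3 at 1.95. Over all 194 values, by contrast, 13 rested on 1 spot and 168 on spots within 1 unit. The spot support of large values was not counted over all genes, so it cannot be called particular to the mitotic genes. Spots of the mitotic genes lay more than 1 unit apart in 13 of 181 pairs (7.18%), against 10.5% over all genes, and 7 of the 13 were on array 2. The range over arrays passed 2 units in 12 of 50 genes (24%), against 18.3% of all genes tested, and the median SD over arrays was 0.42 both in the 50 and in all genes tested.

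**Figure D3:**
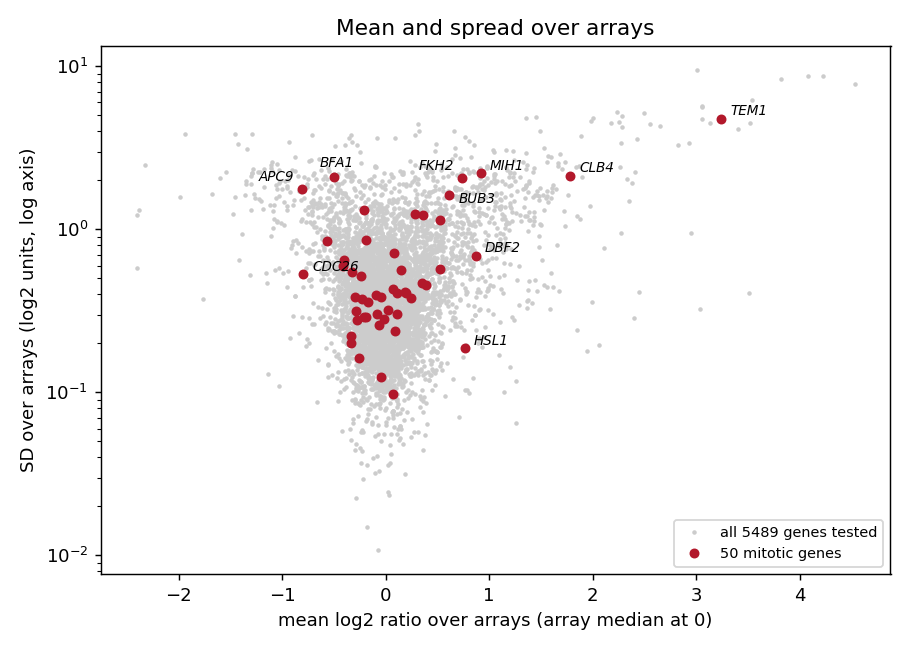
Mean log2 ratio over arrays (x axis) against the SD over arrays (y axis, log scale) for all 5489 genes tested in grey and the 50 mitotic genes in red. TEM1, CLB4 and MIH1 have high means with SDs above 2, while HSL1 combines a mean of 0.76 with an SD of 0.19.

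Channel assignment was compared because channel 2 carried the treated RNA on arrays 1 and 3, and channel 1 on arrays 2 and 4. Over the 44 mitotic genes with 4 values, Spearman's rho was 0.50 between arrays 1 and 3, 0.03 between arrays 2 and 4, and from -0.10 to 0.23 between arrays of opposite assignment. Sign was shared by 29 of 44 genes (65.9%) on arrays 1 and 3, against 75.7% of all genes with 4 values, and by 26 of 44 (59.1%) on arrays 2 and 4, against 58.8%. On arrays of opposite assignment it was shared by 17 to 24 of 44, against 44.6% to 46.9% of all such genes. The mean of arrays 1 and 3 exceeded that of arrays 2 and 4 in 26 of 44 genes (59.1%), against 52.0% of all genes with 4 values, and the median difference was 0.37 in the 44 genes against 0.04 in all. No gene differed past an adjusted p of 0.05 (limma, 0 of 44 here and 0% of all genes), and at an unadjusted p under 0.05 there were 4 of 44 (9.09%) against 17.6%. These 4 were DBF2, NDD1, APC11 and BUB2. NDD1 was higher on arrays 1 and 3 by 0.70 ± 0.20 (limma adjusted p = 0.25). APC11, the catalytic ring subunit of the complex, went the other way, with a difference of -0.88 ± 0.26 (limma adjusted p = 0.26), as did BUB2, at -0.63 ± 0.22 (limma adjusted p = 0.28).

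**Figure D4:**
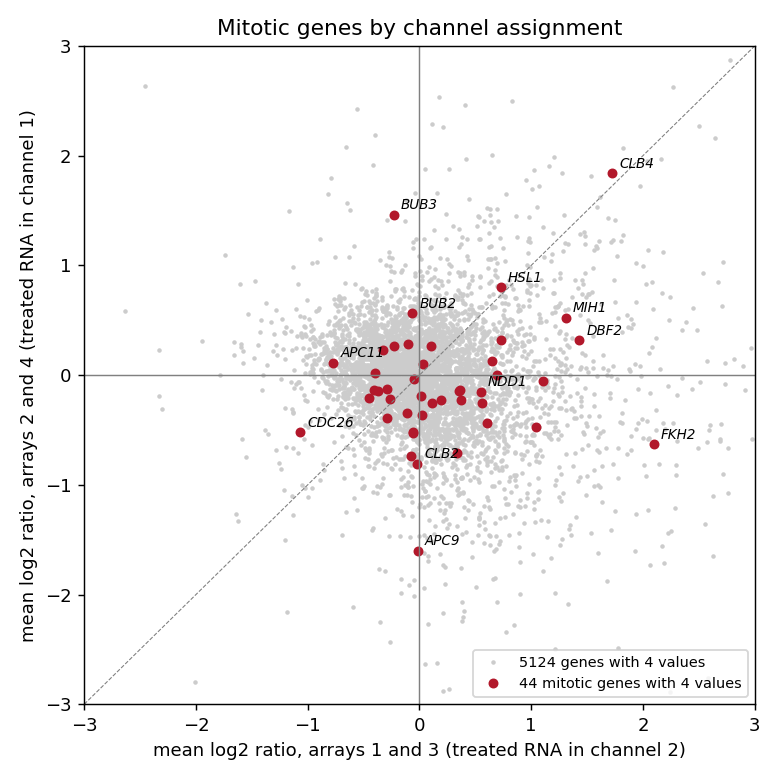
Mean log2 ratio on arrays 1 and 3 (x axis) against arrays 2 and 4 (y axis) for the genes with 4 values, in grey, and the 44 such mitotic genes, in red; genes beyond 3 units are not drawn and the dashed line marks equal values. HSL1 lies close to the dashed line at 0.73 and 0.80, DBF2 lies to its right at 1.43 and 0.32, and most other mitotic genes lie near 0.

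Genes that share the work or the control of these 50 were described by count and median. In the CLB2 cluster outside the 50, genes that peak with CLB2 under the forkhead factors, 9 of 11 tested means lay below 0 and 2 above, with a median of -0.22, where 48.0% of all genes tested lay above. The cluster's medians on arrays 1 to 4 were 0.03, -0.42, 0.25 and -0.04, with array 2 lowest. With the sign of arrays 2 and 4 turned, 7 of 11 means lay above 0 and the median was 0.16. No gene of this cluster passed the test. IQG1, of the contractile ring, stood at 0.45, 0.59, 0.35 and 0.40, above 0 on all 4 arrays (mean 0.45 ± 0.13, SE, n = 4, limma adjusted p = 0.56). Cyclins of G1 and S phase had a median of 0.00, with 3 of 6 means above 0.

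Other subunits of the anaphase-promoting complex had a median of -0.08 over 4 genes, and other exit regulators a median of 0.09 over 9. NUD1, the scaffold of the exit network at the spindle pole, stood at -0.44, -0.35, -0.54 and -0.52, all below 0 and close together (mean -0.46 ± 0.13, SE, n = 4, limma adjusted p = 0.56). Septins and the kinases bound to them, neighbours of Hsl1 at the bud neck, had a median of -0.02 over 11 genes, and the septin gene CDC10 stood at 0.17, 0.44, 0.37 and 0.70 (limma adjusted p = 0.63). Kinetochore genes had a median of 0.00 with 13 of 27 means above 0, and genes of microtubules and motors a median of 0.00 with 9 of 17 above. Spindle pole body genes had a median of -0.07 over 13 tested, and cohesin and condensin genes a median of -0.03 over 14. No gene of these 9 lists passed the test, and 3 of the 112 tested (2.68%, against 7.74% of all genes tested) were under an unadjusted p of 0.05, namely IQG1 and CDC10 above 0 and NUD1 below.

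**Figure D5:**
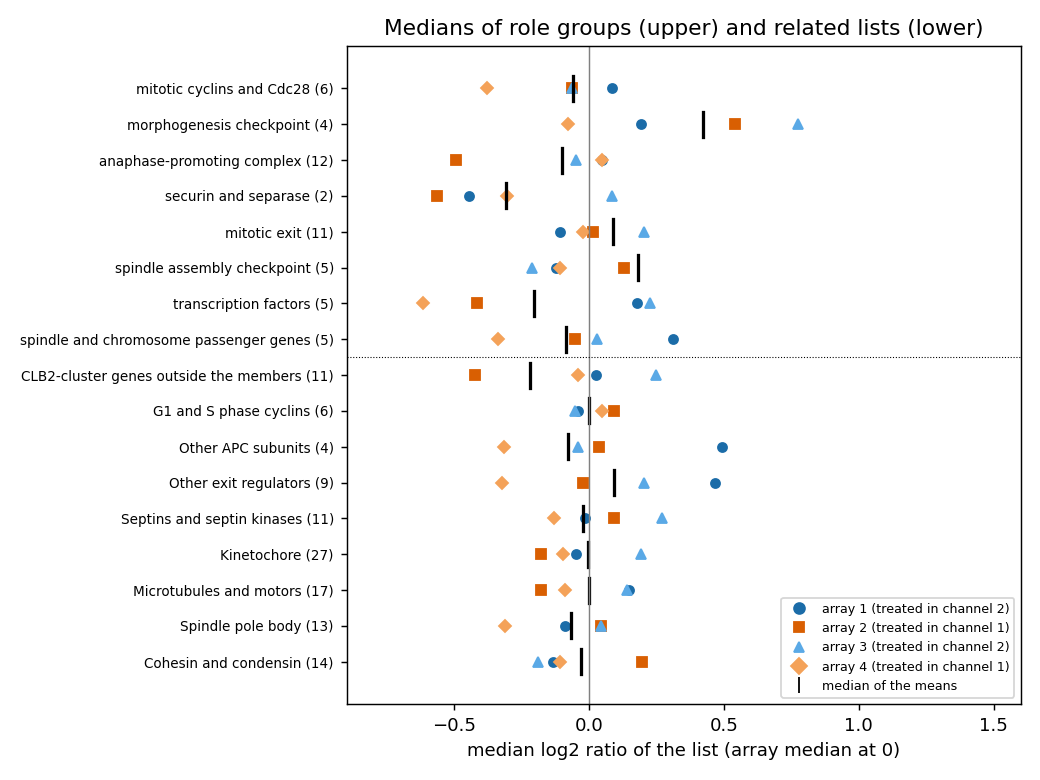
Median log2 ratio (x axis) of each role group of the 50 genes, above the dotted line, and of the 9 related lists, below it, on each array, with the number of genes tested in brackets and a black bar for the median of the gene means. The array medians of every list shown lie on both sides of 0, and those of the transcription factors are at 0.18 and 0.23 on arrays 1 and 3 and at -0.41 and -0.62 on arrays 2 and 4. The spindle genes, the CLB2 cluster, the other exit regulators, and the microtubules and motors likewise have medians above 0 on arrays 1 and 3 and below 0 on arrays 2 and 4.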

How the data were processed

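The labels gave 4 2-colour arrays of 1 comparison, and groups, array numbers and channels came from them. Each deposited value is the log2 ratio of a spot, a unit read from the numbers, whose highest equals a ratio of 1e+05. For background correction, normalization and ratio direction the authors' methods were not given in sources used here. Deposited medians were 0.31, 0.02, -0.46 and 0.37 on arrays 1 to 4, and 36 spots lay at the upper limit. Spots were named through the platform's annotation, which is old: 11138 had 1 symbol, 0 several and 1662 none. RefSeq held 11128 of the named spots by gene number, and 0 symbols changed. No build is named for the array, so no coordinates are printed.

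The median of each array was set to 0, and spots of a gene were averaged. Genes valued on 3 or 4 arrays were tested against 0 with limma 3.58.1 in R 4.3.3 (lmFit, eBayes, two-sided, Benjamini-Hochberg, threshold 0.05). This fit held no channel term, so differences between channel assignments add to its errors, intervals and p-values. With the term, 13.2% of all genes tested were under an unadjusted p of 0.05, against 7.74% (limma). The smallest adjusted p of the 50 genes was then 0.28 (limma). A coefficient for channel assignment was tested on genes with 4 values. SE is limma's moderated error. The code was tested on simulated data. The array values were printed for genes at an unadjusted p under 0.05, the 4 cyclins and the highest and lowest mean of each role, with others added after their values were seen. The genes and lists were chosen with earlier results of these data known. From the related lists, genes at an unadjusted p under 0.05 were named; 1 list is not reported here. Alternatives concerned centring, scaling, spots, missing values, variance, left-out arrays and direction.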

Additional observations from a re-analysis of the deposited data

Results flagged for a closer look

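In 3 of the 44 mitotic genes with 4 values, 1 array stood apart from the other 3 by Dixon's 95% criterion, and in all 3 it was array 2. Chance flags about 1 in 20 such groups. The criterion was not applied to all genes, so no share over the whole array stands beside these 3. APC9, a subunit of the anaphase-promoting complex, was at -3.47 on array 2 and between -0.08 and 0.27 on the others. BUB3, of the spindle assembly checkpoint, was at 3.04 on array 2 and between -0.26 and -0.11 on the others. APC1, the largest subunit of the complex, was at -0.49 on array 2 and between 0.22 and 0.36 on the others. Array 2 also had the most blank spots (9.30%) and the largest share of mitotic gene spot pairs more than 1 unit apart, 16.7% against 2.08% to 6.38% on the other arrays. Over the spot pairs of all genes these shares were 18.1% against 6.05% to 9.74%, and the part of these in the 3 values was not tested.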

How the results depend on the processing

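No mitotic gene passed the adjusted threshold under any of the 18 alternatives, and none differed past it between channel assignments in the 15 that could test this. Among these 15, the settings of values on all 4 arrays and on at least 2 arrays repeated the reported channel test. Over all genes the count of calls was 5 of 5489, and 0 with scaling, quantile normalization, a channel term, centring within runs of 400 spots, paired averages, the turned sign or any 1 array left out. It was 3 of 10720 with single spots, counted by spot, and 11 of 4882 without spot pairs more than 1 apart. With values kept only from 2 spots within 1 unit, an alternative chosen after seeing the data, it was 47 of 4485. There HSL1 came nearest to the threshold (limma adjusted p = 0.063), and 220 of 3421 genes, none mitotic, differed by channel assignment (56 of 5124 without centring, against 0).

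Higher genes at an unadjusted p under 0.05 numbered 4 without centring and 4 with paired averages (1 to 3 with an array left out), where all genes gave 4.88% and 5.83% higher (5.37% as reported). Lower ones numbered 0 without centring, without discordant spot pairs and with the turned sign, 2 with the channel term and within runs, and 3 with single spots (0 to 1 with an array left out). All genes gave 0.84%, 3.38% and 5.94% lower in the first trio and 5.76% and 2.57% in the next pair, against 2.37%. The 3 with single spots counts genes with either spot lower at this p, while 2.51% of all 10720 spots were, so the units differ. Genes above 0 on all arrays numbered 6 within runs, 15 with paired averages and 6 with the turned sign (3 to 7 with an array left out). Those below numbered 0 without centring, 7 with single spots (either spot of a gene) and 15 with paired averages (6 to 8). Paired averages leave only 2 values to share a sign, and a left-out array leaves 3, so those counts are not comparable with the 4-array counts. No share over all genes was computed for these sign counts under the alternatives. The median of the 50 was 0.19 with the sign of arrays 2 and 4 turned, and from -0.065 to 0.034 with an array left out. With that sign turned, means reversed for CLB1 (0.051), CLB2 (0.39), CLB4 (-0.059), HSL1 (-0.037), APC9 (0.79), PDS1 (0.33), BFA1 (1.47), BUB3 (-0.85), FKH1 (0.23) and CIN8 (0.12). SWE1 was at 0.015 without centring. With concordant spot pairs alone APC9 was at 0.079, BUB3 at -0.19 (also without discordant pairs), FKH2 at -0.27 and ASE1 at -0.031. With an array left out, ranges that crossed 0 were -0.12 to 0.21 for CLB3, -0.062 to 1.63 for MIH1, -1.17 to 0.079 for APC9, -1.48 to 0.59 for BFA1, -0.19 to 0.91 for BUB3, -0.27 to 1.22 for FKH2 and -0.031 to 0.82 for ASE1. Apart from the sign turn, 315 of 328 recomputed means of 21 genes kept their direction. For genes with 4 values, the channel term, both limits on missing values, robust variance and paired averages return the reported mean unchanged. That count therefore includes means that could not turn, and it is no measure of robustness. The causes of the moves were not tested. No paired analysis was possible because all arrays form 1 group, beyond the pairing of both RNAs on an array that each ratio already holds. No signal over background was used here, so dim spots could not be set aside.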
